A study of Homo sapiens with 6 samples.

Results

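The BCL2 family of apoptosis regulators was compared between large physaliferous and small non-vacuolated MUG-Chor1 cells. The MUG-Chor1 line was derived from a classic sacrococcygeal chordoma, a notochord-like tumor of the axial skeleton, and its large cells carry the vacuoles that give the physaliferous (bubble-bearing) cell its name. Pools of 20 untreated cells were picked by micromanipulation after trypsinization, and the amplified cDNA of each pool analyzed here filled 1 Affymetrix Human Gene 1.0 ST array. The arrays cover 3 large pools (labelled 2, 3 and 4) and 3 small pools (labelled 5, 6 and 7) of this single line, although picking in quadruplicate is described in the methods. Separate cultures are not mentioned for the pools, and p-values therefore speak only for the spread among these 6, which may be technical. All differences below are large minus small on the log2 scale, as values had been log2-transformed during robust multi-array averaging by the authors.

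The 10 genes were listed by name, and for each the probe set carrying only its symbol was taken, the brightest if there were several. This gave 9 of the 10 genes, each with a single probe set, out of 18404 genes measured in this way. The probe set of *BCL2L2*, coding for the survival protein BCL-W, is shared with the readthrough gene *BCL2L2-PABPN1*, so no value is given for it. The BCL2 family decides whether the outer mitochondrial membrane stays intact. Survival proteins hold the pore-forming effectors BAX and BAK in check, and BH3-only proteins, switched on by DNA damage, growth factor loss or protein stress, release or activate the effectors. Once the membrane is breached, cytochrome c escapes and caspases are activated.

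The cells carried the marks of chordoma. All 7 chordoma markers were above log2(100), that is 6.64, in all 6 pools, a level used here as an expression floor. The median gene lay above this floor on each array, at 6.73 to 6.91, so a value above it does not by itself show expression. The log2 level of *TBXT* (brachyury) averaged 10.36 ± 0.04 over the large and 10.29 ± 0.11 over the small pools (SD, n = 3 each). The keratin *KRT8* averaged 11.54 ± 0.11 and 11.35 ± 0.05, and *KRT19* 11.96 ± 0.07 and 11.99 ± 0.09 (SD, n = 3 each, log2 levels). Over all 18404 genes the median difference between the phenotypes, large minus small, was -0.11 on the log2 scale, and -0.005 after each array had been centred on its own median. Relative to that median the members stood at -0.66 for *BAX*, -0.29 for *BCL2L1*, -0.10 for *BBC3*, -0.10 for *BAK1*, -0.06 for *BCL2L11*, 0.03 for *BCL2*, 0.04 for *MCL1*, 0.08 for *BID* and 0.26 for *PMAIP1*. The mean log2 level of 8 fibroblast markers ran from 6.70 to 6.84 in large and from 6.96 to 7.24 in small pools. For 8 endothelial markers it ran from 6.05 to 6.15 and from 6.19 to 6.27, with 6 of them above the floor in 0 pools. For 7 leukocyte markers it ran from 6.07 to 6.30 and from 6.07 to 6.31, with 4 above the floor in 0 pools. Of these markers, those at an unadjusted p under 0.05 by limma were the endothelial *ERG*, below the floor in all pools, with a log2 difference of -0.35 (adjusted p from limma 0.32), and the leukocyte marker *CD68*, above the floor in all pools, with 0.60 (adjusted p from limma 0.33). The part of these shifts in the results was not tested.

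None of the 9 measured members passed the thresholds of the comparison, an adjusted p under 0.05 and a log2 fold change beyond 1 in either direction. This was also so for all genes, of which 0 of 18404 (0%) were called by limma, the smallest adjusted p being 0.14. At an unadjusted p under 0.05 by limma were 797 genes higher (4.33%) and 1934 genes lower (10.5%) in large cells; this balance became 834 and 1086 after a further quantile normalization and 1342 and 571 after centring of the arrays. Among the members 0 were higher and 1 was lower at that level, *BAX*, which is 11.1% of the 9 and near the background of lower genes. Of the members, 8 had a lower and 1 had a higher mean in large cells, where 66.4% of all genes were lower. The lower members numbered 6 after quantile normalization and 5 after centring, where 62.3% and 50.7% of all genes were lower. The median log2 fold change over the members was -0.17, beside -0.11 over all genes. Relative to that median, 4 members lay above and 5 below.

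Of the effectors, *BAX* had the widest difference of the measured members and *BAK1* lay below the floor. BAX and BAK form the pore in the outer mitochondrial membrane, BAX being mostly cytosolic and BAK resident at mitochondria. The log2 expression of *BAX* was 7.95, 7.83 and 8.51 in large pools 2, 3 and 4 and 9.41, 8.35 and 8.84 in small pools 5, 6 and 7. The phenotypes overlapped in 1 pair of pools, since large pool 4 was above small pool 6. The mean log2 level was 8.10 ± 0.36 for large and 8.87 ± 0.53 for small cells (SD, n = 3 pools each). This is a log2 difference of -0.77 (SE 0.31, 95% confidence interval -1.52 to -0.02), or a 1.70-fold lower signal in large cells. The unadjusted p from limma was 0.047 and the adjusted p 0.34, and an exact two-sided permutation test over the 6 pools gave p = 0.2, where 0.1 is the smallest value possible. The difference was larger in size than that of 95.7% of all genes, but by p from limma *BAX* ranked only 2541 of 18404. The size of the *BAX* difference depended on single pools: without small pool 5 it was -0.50 (adjusted p from limma 0.50), and without small pool 6 it was -1.03 (adjusted p from limma 0.47).

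The sequence in front of *BAX* is shown because this gene had the smallest p of the members, together with that of *PMAIP1*, the member with a higher mean in large cells. The 250 bases upstream of the annotated starts were taken from RefSeq for GRCh38.p14, 5′ to 3′ on the strand of the gene. *BAX* lies on the plus strand (chr19:48954625-48954874) and so does *PMAIP1* (chr18:59899746-59899995). Capitals mark the E-box CACGTG, the GC box GGGCGG and the CCAAT box, on either strand.
BAX: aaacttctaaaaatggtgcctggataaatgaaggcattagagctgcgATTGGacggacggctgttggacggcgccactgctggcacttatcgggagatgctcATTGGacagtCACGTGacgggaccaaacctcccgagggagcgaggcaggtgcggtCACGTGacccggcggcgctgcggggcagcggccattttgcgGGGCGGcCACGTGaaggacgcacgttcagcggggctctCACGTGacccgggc
PMAIP1: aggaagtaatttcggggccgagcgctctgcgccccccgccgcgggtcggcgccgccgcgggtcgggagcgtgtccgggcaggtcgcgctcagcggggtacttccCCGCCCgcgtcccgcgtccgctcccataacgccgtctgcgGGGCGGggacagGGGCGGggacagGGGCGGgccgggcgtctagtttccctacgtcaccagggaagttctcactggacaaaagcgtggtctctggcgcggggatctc
The *BAX* window held 4 E-boxes, 1 GC box and 2 CCAAT boxes, all of the latter in reverse orientation, without overlap between the motifs. The *PMAIP1* window held 0 E-boxes, 4 GC boxes and 0 CCAAT boxes. The E-box is present in 6.34% of 35116 RefSeq promoter windows of this length, the GC box in 42.6% and the CCAAT box in 32.0%. Of the 10 listed members 8 had a promoter entry, some with several starts, and of their 13 windows, of which those of *BID* overlap in part with each other, 4 held the E-box (in 3 genes), 8 the GC box (in 5 genes) and 4 the CCAAT box (in 4 genes). The TATA box TATAAA was found in 1 of the 13 windows, of *BCL2L1*, and in 10.7% of all windows, and the p53 decamer motif in 1, of *BAK1*, and in 5.57% of all windows. These matches describe the letters of the windows, and binding was not measured.

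For *BAK1* the log2 levels were 6.09, 5.93 and 6.22 in the large and 6.18, 6.48 and 6.20 in the small pools. All 6 values lay below the expression floor, so *BAK1* gave signal near background and the size of any difference is uncertain. The phenotypes overlapped, and the difference on the log2 scale was -0.21 (SE 0.13, interval -0.53 to 0.12, adjusted p from limma 0.44).

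**Figure D1:**
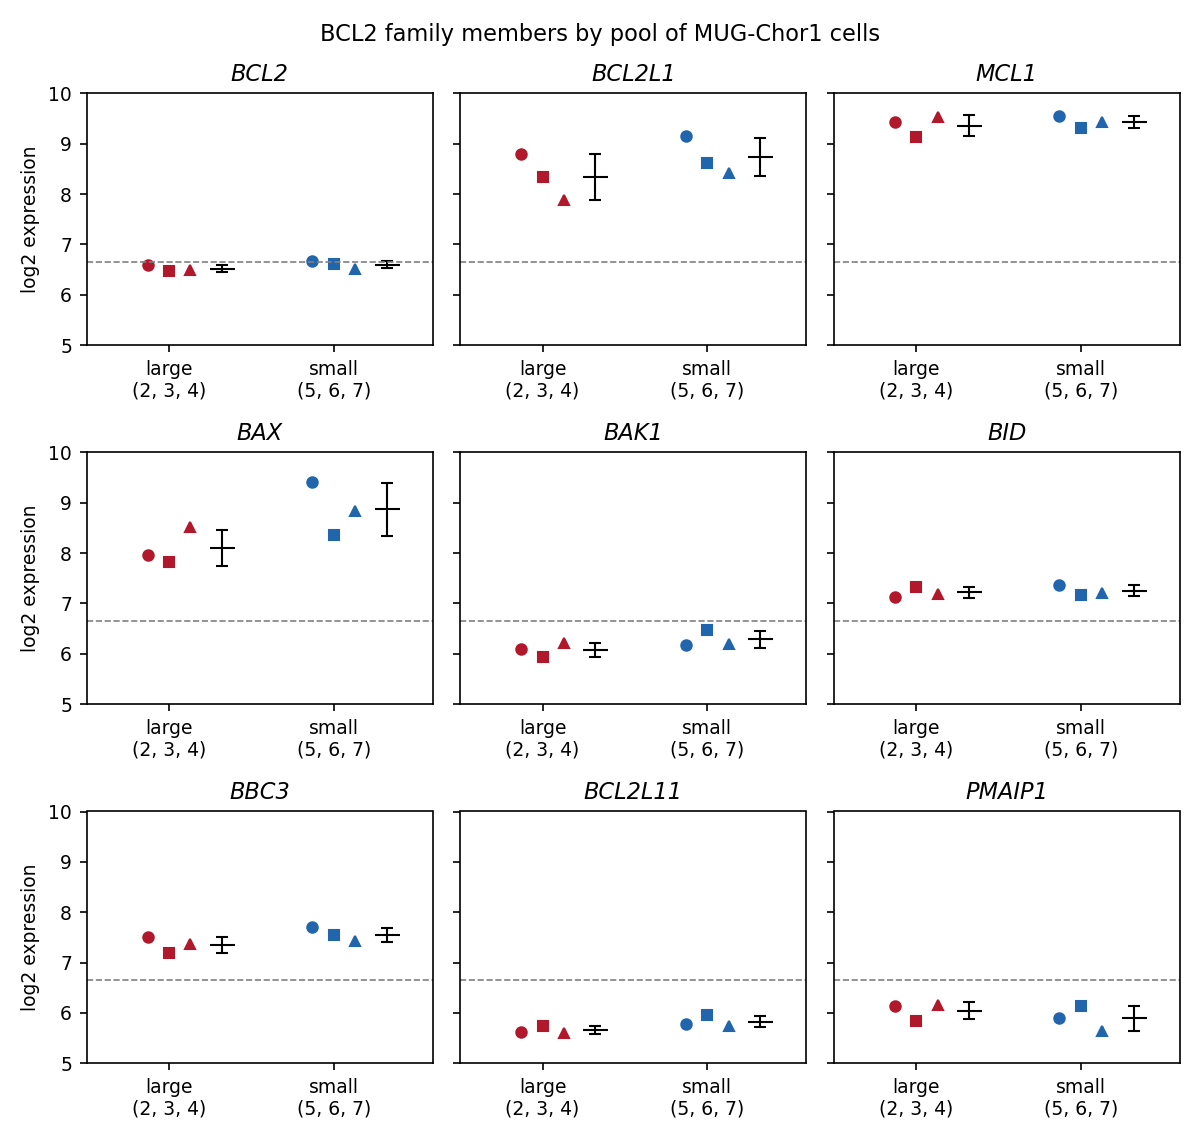
Log2 level (vertical axis) of the 9 measured BCL2 family genes in each pool of 20 large (red) or 20 small (blue) MUG-Chor1 cells; symbols stand for pools 2, 3 and 4 or 5, 6 and 7 in that order from left to right. Black lines show the mean and SD of the 3 pools, and a dashed line the floor of 6.64; *BAX* and *BCL2L1* spread most within a phenotype, and *BAK1*, *BCL2L11* and *PMAIP1* lie below the floor in every pool.

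For the survival genes, the differences between the phenotypes stayed within the spread between pools. *MCL1*, coding for a short-lived survival protein that is rapidly degraded by the proteasome, had log2 levels of 9.43, 9.13 and 9.53 in the large and 9.56, 9.31 and 9.44 in the small pools. The ranges of the phenotypes lay over each other, and all pools were above the floor. The log2 difference of *MCL1* was -0.07 (SE 0.14, interval -0.42 to 0.27, adjusted p from limma 0.79).

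*BCL2L1*, coding for BCL-XL, had log2 levels of 8.79, 8.34 and 7.88 in the large and 9.15, 8.62 and 8.42 in the small pools. The lowest pool was large and the highest small, but large pool 2 lay above small pools 6 and 7. Mean log2 levels were 8.33 ± 0.46 and 8.73 ± 0.38 (SD, n = 3 pools each), with a difference of -0.40 (SE 0.29, interval -1.10 to 0.31, adjusted p from limma 0.48). Without large pool 2 it was -0.62 and without large pool 4 it was -0.17, so its size is not settled by these pools. *BCL2L1* and *MCL1* are each spliced into long survival and short death-promoting forms, which a value per gene does not separate.

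*BCL2*, the founding survival gene of the family, had log2 levels of 6.59, 6.47 and 6.50 in the large and 6.66, 6.61 and 6.52 in the small pools. Only small pool 5 was above the floor, and the phenotypes overlapped. On the log2 scale *BCL2* differed by -0.08 (SE 0.09, interval -0.31 to 0.15, adjusted p from limma 0.66), and after either quantile normalization (0.004) or centring of the arrays (0.03) it turned to the other side of 0.

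The balance of *BAX* against *BCL2* is often taken as a measure of readiness for apoptosis, and it was described within each pool, where a constant log2 shift of an array cancels. *BAX* minus *BCL2* on the log2 scale was 1.36, 1.36 and 2.02 in the large and 2.75, 1.74 and 2.33 in the small pools. The order of the pools was that of *BAX*, except that large pools 2 and 3 stood level, and large pool 4 was again above small pool 6. It averaged 1.58 ± 0.38 for large and 2.27 ± 0.50 for small cells (SD, n = 3 pools each), a difference of -0.69. After quantile normalization this difference was -0.81. The offset between probe sets of different genes has no meaning, so only the difference between pools can be read from these values. The lack of clear signal for *BCL2* limits this comparison.

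The BH3-only genes differed less than *BAX* between the phenotypes. *BBC3*, coding for PUMA, a direct target of p53, had log2 levels of 7.50, 7.18 and 7.36 in the large and 7.70, 7.55 and 7.42 in the small pools. All pools were above the floor, and large pool 2 was the large pool that reached into the small range. *BBC3* thus differed on the log2 scale by -0.21 (SE 0.13, interval -0.52 to 0.11, adjusted p from limma 0.42). *BID*, which links death receptors to mitochondria when it is cut by caspase-8, had log2 levels of 7.13, 7.33 and 7.19 in the large and 7.37, 7.17 and 7.22 in the small pools. These ranges were nearly the same, with a log2 difference of -0.03 (SE 0.11, interval -0.29 to 0.23, adjusted p from limma 0.88).

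*BCL2L11*, coding for BIM, a gene under the control of FOXO factors, had log2 levels of 5.62, 5.74 and 5.59 in the large and 5.78, 5.95 and 5.75 in the small pools. It was the member in which all large pools lay below all small pools, by a gap of only 0.0022 on the log2 scale, and all 6 values were below the floor. The log2 difference of *BCL2L11* was -0.17 (SE 0.10, interval -0.42 to 0.08, adjusted p from limma 0.42). Over all genes the groups did not overlap in 5.48% with higher and in 21.6% with lower values in large cells, beside 0 and 1 of the 9 members. With the arrays centred on their medians *BCL2L11* overlapped as well.

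*PMAIP1*, coding for NOXA, which binds MCL1 and hastens its degradation, had log2 levels of 6.14, 5.84 and 6.15 in the large and 5.90, 6.14 and 5.64 in the small pools. All values were below the floor and the phenotypes overlapped. For *PMAIP1* the log2 difference was 0.15 (SE 0.16, interval -0.25 to 0.55, adjusted p from limma 0.62). For 7 of the 9 members the 95% confidence interval excluded a log2 difference of 1 in either direction. The exceptions were *BAX* and *BCL2L1*, whose intervals reached below -1. For members near background, true differences may be compressed, so these intervals hold for the signal on the arrays.

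**Figure D2:**
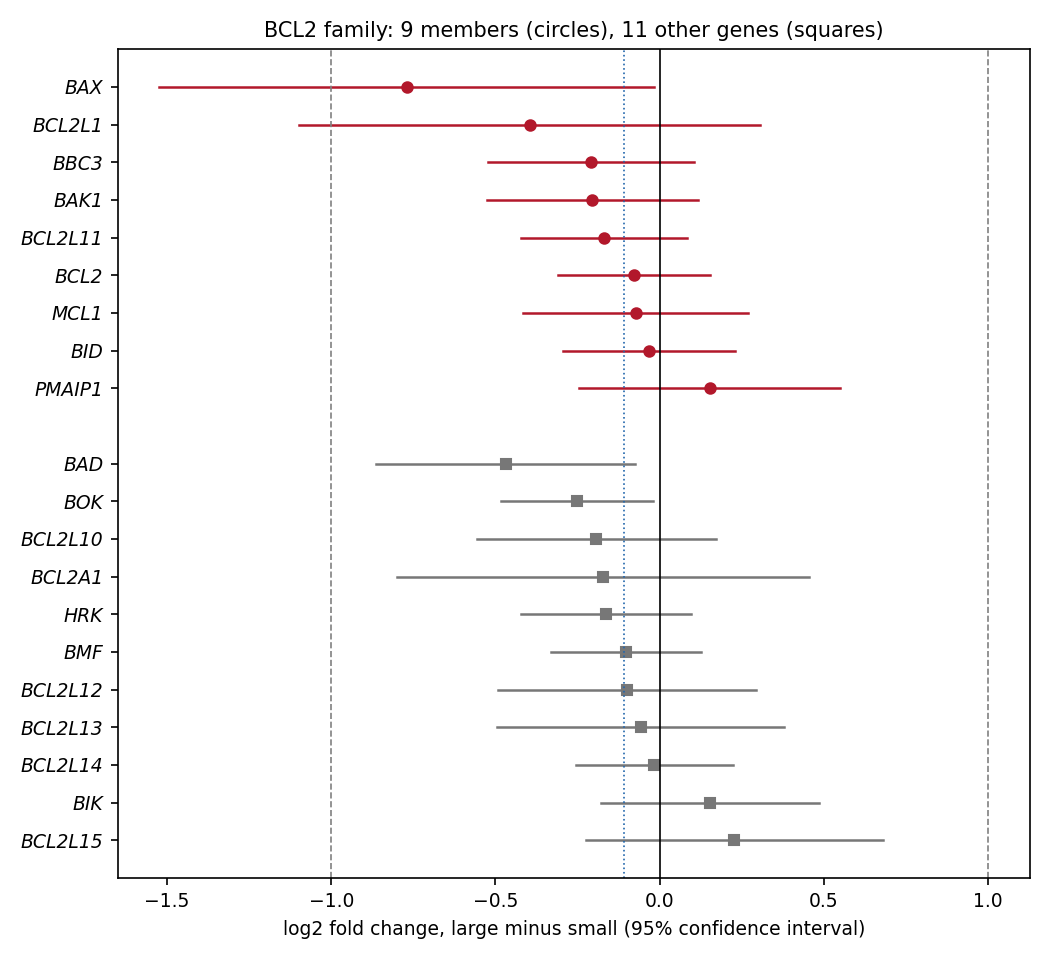
Log2 fold change of large minus small cells (horizontal axis) with 95% confidence intervals from limma (3 pools against 3) for the 9 measured members (red circles) and 11 other genes of the family (grey squares). The dotted line is the median of all genes (-0.11) and dashed lines are the limits of -1 and 1; the intervals of *BAX*, *BAD* and *BOK* lie below 0, and those of the other genes include 0.

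*BAX* and *BCL2L1* also varied most within a phenotype. The range of *BAX* was 0.68 over the large and 1.05 over the small pools, and that of *BCL2L1* 0.92 and 0.73. In the other 7 members the range within a phenotype was 0.12 to 0.50. Among small pools, number 5 had the highest value of both genes, whereas among large pools number 4 had the highest *BAX* and the lowest *BCL2L1*. The mean log2 level of 10 proliferation genes, such as *MKI67*, was 6.78, 6.43 and 8.72 in the large and 8.07, 8.02 and 7.15 in the small pools. Among large pools *BAX* and the proliferation genes put the pools in the same order, with large pool 4 the highest. Small pool 5 was the highest small pool for both, whereas of small pools 6 and 7 the one with more *BAX* had the lower proliferation level. The part of proliferation in the *BAX* values was not tested.

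Among 11 further genes of the family, 9 had a lower and 2 a higher mean in large cells, with a median log2 fold change of -0.10. By limma 0 of them were called, and at an unadjusted p under 0.05 were 2, both lower and both without overlap of the phenotypes. Beside these 2 of 11, 10.5% of all genes were lower at that level and 21.6% were lower without overlap. *BAD*, a BH3-only gene whose protein is silenced by growth factor signaling, had log2 levels of 7.18, 6.98 and 7.01 in the large and 7.72, 7.66 and 7.21 in the small pools. The log2 difference of *BAD* was -0.47 (SE 0.16, adjusted p from limma 0.32). *BOK*, coding for a relative of BAX and BAK, had log2 levels of 7.21, 7.07 and 7.07 in the large and 7.43, 7.36 and 7.31 in the small pools, a log2 difference of -0.25 (SE 0.10, adjusted p from limma 0.33). Both genes were above the floor in all pools, whereas 6 of the 11 genes were above it in 0 pools. Together, 17 of the 20 measured genes of the family had a lower mean in large cells as deposited, where 66.4% of all genes did. The number was 13 after quantile normalization and 10 after centring, where 62.3% and 50.7% of all genes were lower. *BAD* kept an unadjusted p under 0.05 by limma after either scaling (0.040 and 0.049), whereas *BOK* did not (0.075 and 0.14).

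Genes that act at or below the mitochondria were divided between directions as deposited. After quantile normalization 6 of 11 genes of the apoptosome and of mitochondrial release and 3 of 4 caspases were higher, beside 37.7% of all genes. After centring these were 9 of 11 and 4 of 4, beside 49.3% of all genes. Centring moves the log2 fold change of every gene by the same amount. With it 7 of 7 chordoma markers were higher as well, but only 2 of 8 fibroblast markers. As deposited, 5 of the 11 genes of the apoptosome and of mitochondrial release were higher and 6 lower (median log2 fold change -0.01). At an unadjusted p under 0.05 was *VDAC2*, coding for a channel of the outer membrane that binds BAK and BAX. It had log2 levels of 10.21, 10.33 and 10.37 in the large and 9.34, 9.71 and 9.88 in the small pools. All large pools were thus above all small pools, as in 5.48% of all genes, and 4.33% of all genes were higher at that level of p. The log2 difference of *VDAC2* was 0.66 (SE 0.16, adjusted p from limma 0.32), opposite in sign to that of *BAX*. Of the caspases 4 were measured, 2 higher and 2 lower (median 0.12), and 0 were at an unadjusted p under 0.05 by limma. Of 6 inhibitors of apoptosis 4 were higher and 2 lower (median 0.20), as deposited and after centring alike, and again 0 were at that level.

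Of 10 genes of the death receptor pathway, 5 were higher and 5 lower (median -0.005). At an unadjusted p under 0.05 was the receptor gene *TNFRSF10A* with a log2 difference of -0.34 (SE 0.12, adjusted p from limma 0.32), which was above the floor in 1 of 6 pools and lost that level after either scaling (unadjusted p from limma 0.067 and 0.066). As deposited, 10.5% of all genes were lower and 4.33% higher at that level. Of 13 genes of the p53 axis, 10 were higher and 3 lower (median 0.18), and 10 and 11 were higher after quantile normalization and centring. The share of all genes that were higher was 33.6% as deposited, 37.7% after quantile normalization and 49.3% after centring. At an unadjusted p under 0.05 was *MDM4*, coding for an inhibitor of p53, with a log2 difference of 0.49 (SE 0.20, adjusted p from limma 0.34). *MDM4* lost that level after quantile normalization (unadjusted p from limma 0.071) but kept it after centring (unadjusted p from limma 0.029). Of the p53 targets among the members, *BAX* and *BBC3* had lower means in large cells (log2 differences of -0.77 and -0.21) and *PMAIP1* a higher one (0.15).

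Of 11 genes that act on *MCL1* or on BH3-only genes, 5 were higher and 6 lower (median -0.01), and 3 were at an unadjusted p under 0.05. Of these 3, 2 were higher and 1 lower, beside 4.33% of all genes higher and 10.5% lower at that level. *DDIT3*, the stress factor CHOP that can induce *BCL2L11* and *BBC3*, had log2 levels of 8.35, 8.30 and 7.94 in the large and 7.70, 7.69 and 7.81 in the small pools, a log2 difference of 0.46 (SE 0.14, adjusted p from limma 0.32). *BTRC*, coding for a ubiquitin ligase subunit, had a log2 difference of 0.43 (SE 0.16, adjusted p from limma 0.33). *FOXO3*, an activator of *BCL2L11* and *BBC3*, had -0.38 (SE 0.15, adjusted p from limma 0.33). Its unadjusted p from limma was 0.033 after quantile normalization and 0.099 after centring. Of 10 proliferation genes 3 were higher and 7 lower (median -0.37), and 0 were at that level. None of the genes of these lists was called over all genes by limma.

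**Figure D3:**
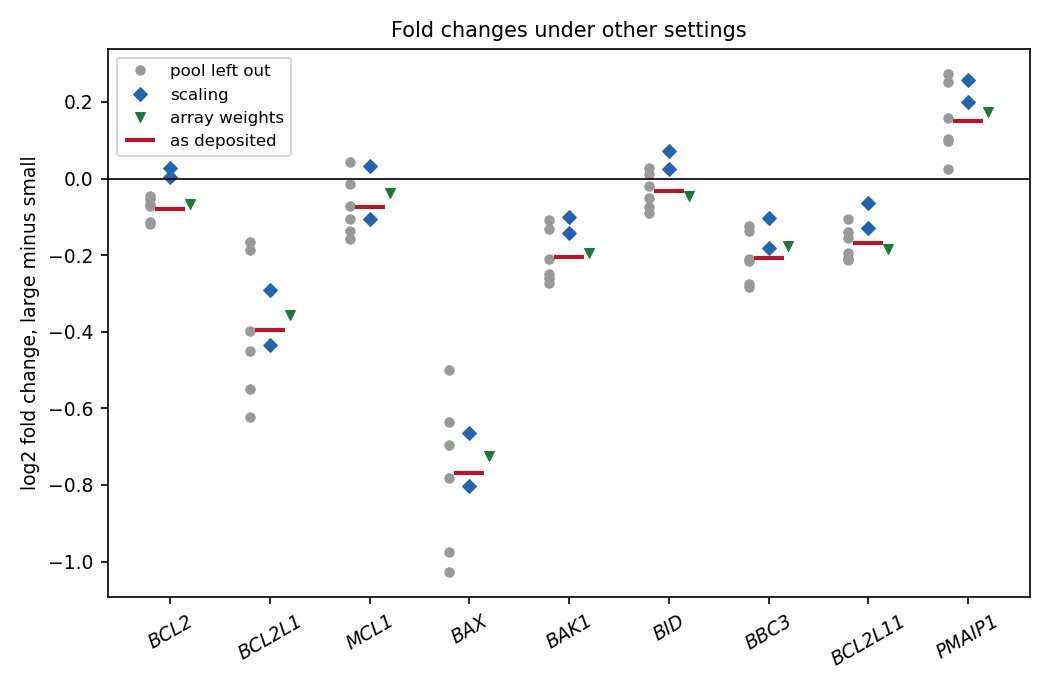
Log2 fold change of large minus small cells (vertical axis) of each member as deposited (red bar), with 1 pool left out (grey circles), after quantile normalization or centring (blue diamonds) and with array weights (green triangles). *BAX*, from -1.03 to -0.50, stayed below 0 in every setting shown, whereas *BCL2*, *MCL1* and *BID* crossed 0.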

How the data were processed

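The values deposited by the authors are log2 signals per probe set and array. They come from robust multi-array averaging, which corrects background, equalizes quantiles between arrays and summarizes probes by median polish. The affy package is named in the methods and Affymetrix Expression Console in the submitters' processing notes. The number of arrays limits the precision. Samples were grouped by their titles, and 0 columns were unused.

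Genes were named through the platform annotation. Of 32321 probe sets, 19158 had 1 symbol, 1388 several and 11775 none. The brightest probe set per gene was tested for large minus small with limma 3.58.1 in R 4.3.3, without covariates, with Benjamini-Hochberg adjustment over all 18404 genes. The study's filter on expression and change was an alternative, because its limits are not stated and it would remove members: 5 of 9 passed a floor of 100 (linear signal) in 25% of the arrays, and 1 passed it with an interquartile range above 0.5 as well. The test was checked on simulated data.

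The members and lists were chosen with earlier results of these data known. Besides the members, up to 4 genes per list (marker lists excepted) with the smallest unadjusted p under 0.05 were named, as were *TBXT*, *KRT8* and *KRT19*. *MKI67*, *ERG* and *CD68* were named after their values were seen. Alternatives covered filters, probe sets, scaling, the variance model, array weights and each pool left out. Protein sequences, RT-qPCR, array-CGH and time lapse data were not analysed here.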

Additional observations from a re-analysis of the deposited data

How the results depend on the processing

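No member passed the thresholds under any alternative run. Over all genes limma called 0 under each alternative except the filter on the floor and the interquartile range, which called 2 of 2062 genes, *SNORD59B* and *ZNF814*, named after their values were seen. The count of members lower at an unadjusted p under 0.05 (1, *BAX*) was 0 with that filter, over all probe sets, with centred arrays and with array weights, and 0 to 1 with a pool left out (0 when the pool was large 2, large 3, small 5 or small 7). Over the alternatives the adjusted p of *BAX* from limma ran from 0.33 to 0.50 and its log2 fold change from -1.03 to -0.50. The count of members without overlap and lower was 0 with either filter, which removes *BCL2L11*, and 0 with centred arrays. With a pool left out it was 1 to 4 (4 when it was large pool 2, 3 for large pool 4 and for small pool 7, 2 for small pool 6), and the count higher was 0 to 1 (1 without large pool 3), where 3 pools against 2 overlap less easily: of all genes 25.7% to 30.5% then did not overlap and were lower, and 8.06% to 9.71% higher.

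The direction turned, at values near 0, for *BCL2* after quantile normalization (0.0044) and centring (0.026), for *MCL1* after centring (0.031) and without large pool 3 (0.044; -0.16 to 0.044 over the pools left out), and for *BID* after quantile normalization (0.025), centring (0.072) and when large pool 2 (0.011) or small pool 5 (0.027) was missing (-0.090 to 0.027 over the pools left out). It held for the other 6 members. The difference in *BAX* minus *BCL2* ran from -0.96 to -0.45; its alternatives were added after the data were seen. Of the genes at an unadjusted p under 0.05, 70.8% were lower in large cells as deposited, 56.6% after quantile normalization and 29.8% after centring; the cause was not tested. Their number was 2731 as deposited and 263 with the filter on the interquartile range, which tests fewer genes and left 229 higher and 34 lower (12.9%). No paired analysis was possible because the phenotypes share no pool number.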
